A study of Mus musculus with 6 samples.

Results

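The constitutive proteasome genes described here are the 33 genes of the array whose annotated symbol is Psma1 to Psma7, Psmb1 to Psmb7, Psmc1 to Psmc6 or a numbered Psmd, out of 20239 named genes. They comprise 7 genes of the α subunits and 6 of the β subunits of the 20S core particle, 6 of the ATPases and 14 non-ATPase genes of the 19S regulatory particle. Psmb5, the remaining β gene, is not analysed here. Of the 14 non-ATPase genes, 3 belong to the base of the 19S particle, 8 to its lid, and 3 (Psmd5, Psmd9 and Psmd10) encode assembly chaperones that leave before the particle is finished, so the 33 genes are not all subunits.

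The genes were measured in isolated mouse pericytes, the mural cells of capillaries, of the C57BL/6 background. Of 6 arrays of total RNA, 3 came from cells kept for 5 days with PDGF-BB at 100 ng/ml, and 3 from control cells kept for 5 days without it. PDGF-BB is the homodimeric B-chain ligand of the pericyte receptor PDGFR-β. The labels name neither the tissue the cells were taken from nor whether the 3 arrays of a group came from separate isolations or cultures. The p-values thus weigh each change against the spread between these arrays, which may be technical. Every value is a log2 expression value on the RMA scale unless it is called a change. A log2 change gives the mean of the PDGF-BB arrays minus that of the control arrays. A gene was called where the Benjamini-Hochberg adjusted p of limma's moderated test over all 20239 genes lay under 0.05.

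The 26S proteasome degrades proteins tagged with ubiquitin. Its 20S core is a barrel of stacked α and β rings: the α rings gate the entrance, and the β rings carry the proteolytic sites inside. The 19S particle caps the barrel. Its ATPase ring unfolds substrates and opens the gate, its scaffold and receptor subunits bind ubiquitin chains, and its lid removes the chains before degradation. Transcription of the subunit genes is known to be raised together by NRF1 (Nfe2l1) when proteasome activity falls short.

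The labelled cell type was set against markers. Pdgfrb had a high signal in all 6 arrays, at 12.83, 12.77 and 12.95 in PDGF-BB arrays 1 to 3 and 12.91, 12.93 and 13.11 in control arrays 1 to 3. Of the other 8 pericyte markers, Anpep, Cspg4, Mcam and Notch3 lay between 8.34 and 10.20 in all arrays. Abcc9, Des, Kcnj8 and Rgs5 lay between 7.11 and 7.97. A high signal was not limited to Pdgfrb. The fibroblast markers Col1a1, Col1a2, Dcn and Pdgfra lay between 12.56 and 13.68 in all arrays, Lum between 7.78 and 11.67 and Pi16 between 6.98 and 7.14. Such values cannot be set against other probe sets as levels. Across genes, Pearson's r between 2 arrays was 0.994 to 0.996 within a group and 0.973 to 0.986 between the groups. Some markers of other mural and stromal cells changed. The mean over 6 smooth muscle markers was 8.85 to 9.32 in PDGF-BB arrays and 9.84 to 10.26 in control arrays, with Acta2, Cnn1 and Tagln called lower and Smtn higher (adjusted p = 0.0442, and 0.0669 with array number as a block). Over 6 fibroblast markers the mean was 11.49 to 11.85 in PDGF-BB arrays and 11.16 to 11.24 in control arrays, with Lum called higher. Lum had a log2 change of 2.91, while the other 5 had changes of -0.07 to 0.17 and were not called, for a median of 0.06 over the list. The 9 pericyte markers averaged 8.81 to 8.91 in PDGF-BB arrays and 8.74 to 8.87 in control arrays, with Anpep called higher, and with the block also Cspg4 higher and Mcam lower (adjusted p = 0.0154 and 0.023). Macrophage markers averaged 6.80 to 6.87 in PDGF-BB arrays and 6.90 to 6.95 in control arrays, with 1 of 7 called lower. The called gene was Cd68 (log2 change -0.42, adjusted p = 0.0181), which lay between 8.89 and 9.57, while the others lay between 5.75 and 7.39. Epithelial and endothelial markers gave no call. Epithelial markers averaged 7.21 to 7.47 in PDGF-BB arrays and 7.20 to 7.28 in control arrays, with 0 of 5 called. Endothelial markers averaged 7.15 to 7.28 in PDGF-BB arrays and 7.14 to 7.23 in control arrays, with 0 of 7 called. In Cdh5 all PDGF-BB arrays lay above control (log2 change 0.45, adjusted p = 0.102), in Pecam1 all lay below (-0.09, adjusted p = 0.375), and the other 5 overlapped. The part of these shifts in the results below was not tested, and in such bulk RNA fewer cells of a type cannot be told apart from less RNA per cell.

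Under PDGF-BB, 14 of the 33 proteasome genes were called higher and 0 lower. Across all 20239 genes 10.1% were called higher and 11.4% lower. The ATPase genes gave 5 calls of 6, the non-ATPase genes 6 of 14, the β genes 2 of 6 and the α genes 1 of 7. The median log2 change was 0.27 over the 33 genes, a 1.21-fold level, against -0.02 over all genes. Every one of the 33 had a log2 change above 0, from 0.03 in Psmb1 to 0.70 in Psmc5, whereas 44.0% of all genes had one (without control array 3, that of Psmc6 was -0.02). In 23 of the 33 the 3 PDGF-BB arrays lay above the 3 control arrays, as they did in 16.9% of all genes, and in the other 10 the groups overlapped. The changes were small: 3 genes had a log2 change above 0.5, and 1 reached a 1.5-fold level.

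Nearly all of the 33 genes had a high signal: 32 lay above the 50th percentile of mean value over the 20239 genes, where 17.4% were called higher, 49.0% had a log2 change above 0 and the median change was -0.01. The exception was Psma5. The 14 calls depended on single arrays, and so did the calls of all genes. Without control array 1 there were 22 calls of 33, when 10% of all genes were called higher. There were 8, 6 and 7 calls when PDGF-BB array 1, 2 or 3 was omitted (7.07%, 7.02% and 7.4% of all genes called higher), and 8 and 7 calls when control array 2 or 3 was (7.59% and 7.11%). The median change of the 33 genes stayed between 0.23 and 0.33 through these 6 omissions. Psmc4, Psmc5, Psmd1, Psmd7 and Psmd14 were called in each of the 6 fits.

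**Figure D1:**
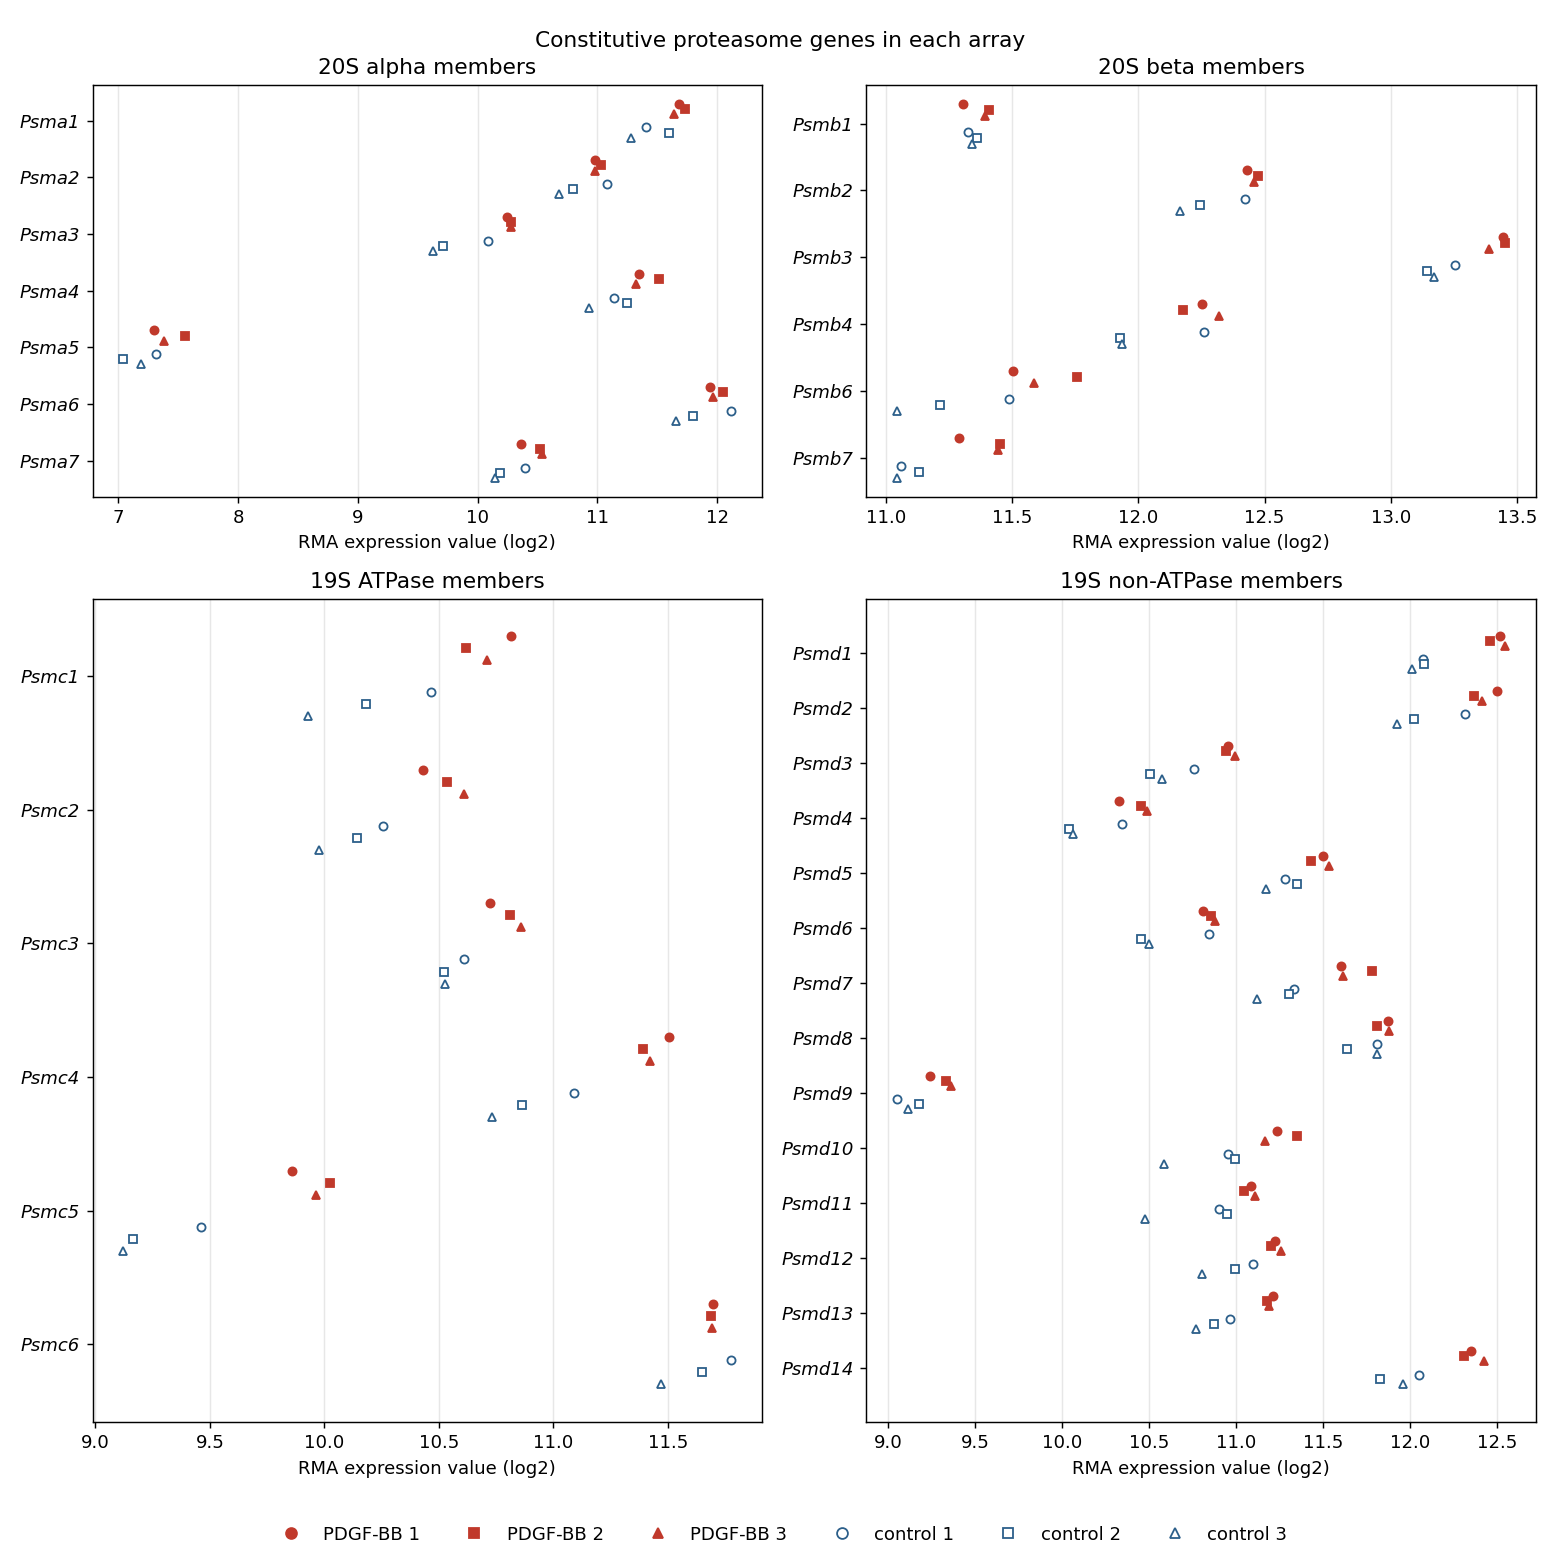
RMA expression values (log2) of the 33 constitutive proteasome genes in each of the 3 PDGF-BB arrays (filled red, upper of each row) and 3 control arrays (open blue, lower), with 1 panel for each group of genes and 1 symbol shape for each array number. PDGF-BB arrays lie above all control arrays in 23 of the 33 rows, and control array 1 is often the control nearest to them. Levels are not comparable between rows.

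**Figure D2:**
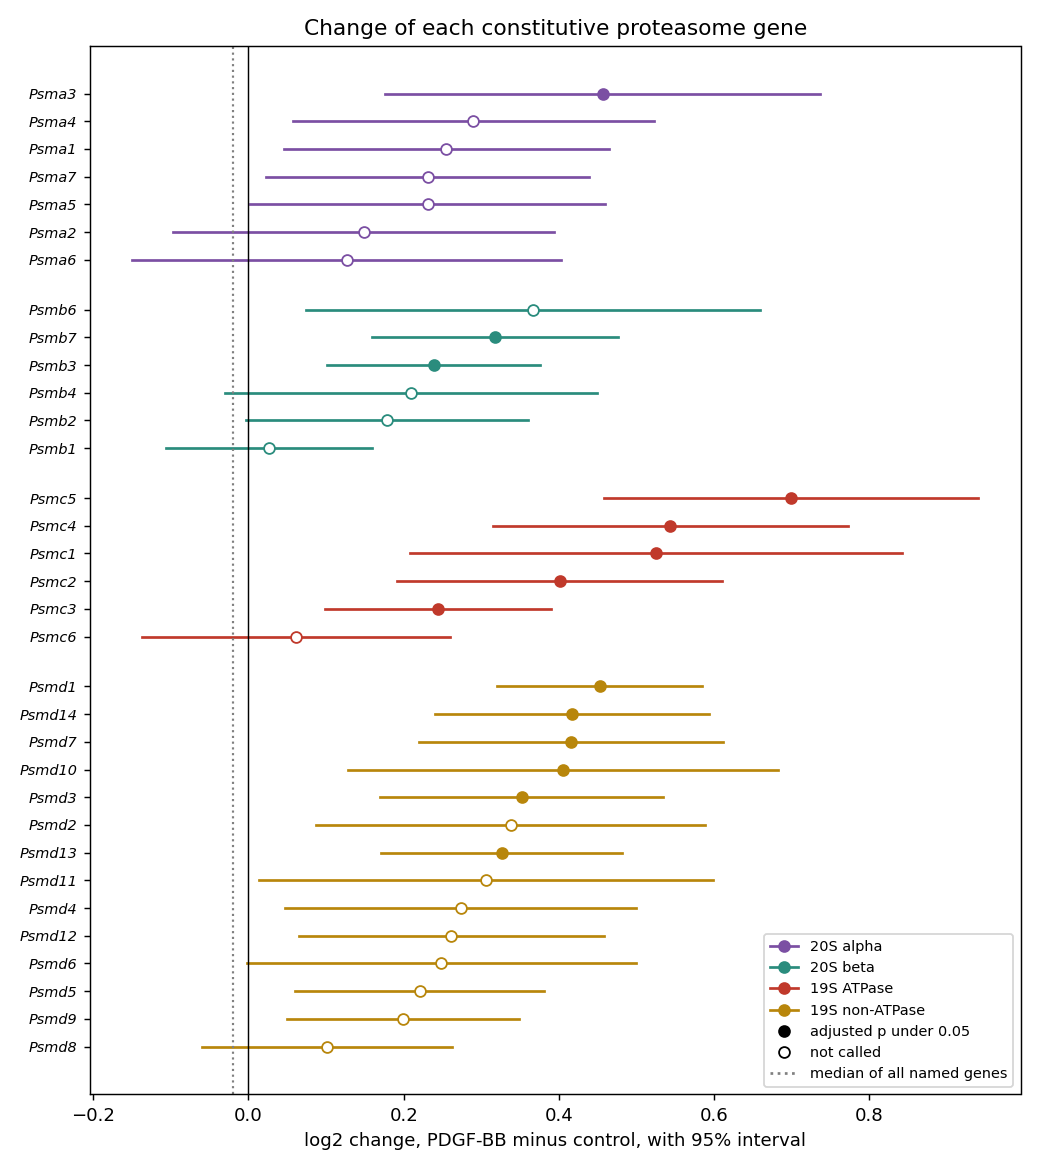
Log2 change (PDGF-BB minus control) of each gene with the 95% interval of the moderated fit, coloured by group and ordered within it; filled points had an adjusted p under 0.05, and the dotted line marks the median of all 20239 genes at -0.02. All 33 points lie above 0, and the largest are those of the ATPases Psmc5, Psmc4 and Psmc1.

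The ATPases form the ring that pulls the substrate apart and threads it into the core. Psmc5, which encodes RPT6 (Entrez gene 19184), measured 9.86, 10.02 and 9.96 in PDGF-BB arrays 1 to 3, against 9.46, 9.16 and 9.12 in control arrays 1 to 3. The groups did not overlap, with control array 1 the highest control. The rise of 1.62-fold was the largest of the 33 (log2 change 0.70, 95% interval 0.46 to 0.94, adjusted p = 0.00437). Psmc4, which encodes RPT3, measured 11.51, 11.39 and 11.42 with PDGF-BB and 11.09, 10.86 and 10.73 in control, again without overlap. It rose 1.46-fold (log2 change 0.54, SE 0.10, adjusted p = 0.00866). Psmc1 encodes RPT2, one of the ATPases whose tail opens the α-ring gate. It measured 10.82, 10.62 and 10.71 with PDGF-BB and 10.46, 10.18 and 9.93 in control. The control arrays were spread widely, with array 1 highest and array 3 lowest. Psmc1 rose 1.44-fold (adjusted p = 0.0325). Of the 6 fits that left out 1 array, only that without control array 1 kept the call (0.0597 to 0.106 in the other 5). With the replicate block the adjusted p of Psmc1 was 0.0138.

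Psmc2 and Psmc3, which encode RPT1 and RPT5, rose 1.32-fold and 1.18-fold (adjusted p = 0.0191 and 0.0312). Psmc2 measured 10.43, 10.54 and 10.61 with PDGF-BB and 10.25, 10.14 and 9.98 in control. Psmc3 measured 10.72, 10.81 and 10.86 with PDGF-BB and 10.61, 10.52 and 10.53 in control. Neither gene's groups overlapped. Leaving out control array 2, PDGF-BB array 2 or PDGF-BB array 3 took the adjusted p of Psmc2 to between 0.0520 and 0.0638. For Psmc3 the omission of array 2 or 3 of either group gave 0.0903 to 0.0980, and the fit blocked on array number gave an adjusted p of 0.0619. Psmc6, which encodes RPT4, was the 1 ATPase gene not called. It measured 11.70, 11.69 and 11.69 with PDGF-BB, inside the control values of 11.78, 11.65 and 11.47. Its log2 change was 0.06 (95% interval -0.14 to 0.26, adjusted p = 0.698), and -0.02 without control array 3.

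The non-ATPase genes of the base encode the scaffolds and a ubiquitin receptor. Psmd1 encodes RPN2, a large scaffold protein of the base (Entrez gene 70247). It measured 12.52, 12.46 and 12.55 in PDGF-BB arrays 1 to 3 and 12.07, 12.08 and 12.01 in control arrays 1 to 3. Both groups were tight, the control arrays included, and lay well apart. Psmd1 had the smallest p of the 33, with a 1.37-fold rise (log2 change 0.45, 95% interval 0.32 to 0.58, adjusted p = 0.00263), and its adjusted p was at most 0.0134 when any 1 array was left out. Psmd2 encodes the scaffold RPN1, which docks shuttle receptors. Psmd2 measured 12.50, 12.37 and 12.41 with PDGF-BB and 12.32, 12.02 and 11.93 in control, with no overlap. Its log2 change was 0.34 (adjusted p = 0.0645). It was called with the replicate block (adjusted p = 0.0296) and without control array 1 (0.00953). Psmd4, the ubiquitin receptor RPN10, measured 10.33, 10.45 and 10.49 with PDGF-BB and 10.34, 10.04 and 10.06 in control. The groups overlapped through control array 1, without which the adjusted p was 0.0179 instead of 0.0906.

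Of the 8 lid genes 4 were called higher and 0 lower (10.1% and 11.4% of all genes), with a median log2 change of 0.32. Psmd14 encodes RPN11, the metalloprotease that cuts ubiquitin chains off the substrate (Entrez gene 59029), and measured 12.35, 12.31 and 12.43 with PDGF-BB and 12.05, 11.83 and 11.96 in control. Its groups did not overlap, and it rose 1.34-fold (log2 change 0.42, SE 0.07, adjusted p = 0.00879). Psmd7 encodes RPN8, with which RPN11 pairs. It measured 11.61, 11.78 and 11.62 with PDGF-BB and 11.33, 11.30 and 11.12 in control, a 1.33-fold rise (adjusted p = 0.013). Psmd3 and Psmd13 encode RPN3 and RPN9, structural lid subunits. Psmd3 measured 10.96, 10.94 and 10.99 with PDGF-BB and 10.76, 10.50 and 10.57 in control. Psmd13 measured 11.21, 11.18 and 11.19 with PDGF-BB and 10.96, 10.87 and 10.77 in control. Neither gene's groups overlapped, and the control arrays were spread more widely. They rose 1.28-fold and 1.25-fold (adjusted p = 0.0188 and 0.0136). The Psmd3 call was lost without any 1 array other than control array 1 (adjusted p = 0.0524 to 0.0606), and the Psmd13 call without PDGF-BB array 1 (0.0504).

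The other 4 lid genes, Psmd6 (RPN7), Psmd8 (RPN12), Psmd11 (RPN6) and Psmd12 (RPN5), had log2 changes of 0.25, 0.10, 0.31 and 0.26 and adjusted p of 0.155, 0.38, 0.136 and 0.0679. In Psmd6 control array 1 lay among the PDGF-BB arrays. It measured 10.81, 10.86 and 10.88 with PDGF-BB and 10.84, 10.46 and 10.50 in control, and its adjusted p without control array 1 was 0.0108. The groups of Psmd11 and Psmd12 did not overlap. Psmd11 measured 11.09, 11.05 and 11.11 with PDGF-BB and 10.90, 10.95 and 10.48 in control. Psmd12 measured 11.22, 11.20 and 11.26 with PDGF-BB and 11.10, 10.99 and 10.80 in control. In Psmd11 control array 3 stood lowest. Psmd12 was called without control array 1 (0.0325) and with each array centred on its own median (0.0497). Psmd8, whose product RPN12 joins the lid last, measured 11.87, 11.81 and 11.88 with PDGF-BB and 11.81, 11.64 and 11.81 in control, with overlap and a 95% interval of -0.06 to 0.26.

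The 3 chaperone genes Psmd5, Psmd9 and Psmd10 help to assemble the ATPase ring. Psmd10, known as gankyrin, measured 11.23, 11.35 and 11.17 in PDGF-BB arrays and 10.95, 11.00 and 10.59 in control arrays, where array 3 stood lowest. It was called at the edge of the threshold (log2 change 0.40, adjusted p = 0.0495) and was not called when any 1 array was left out (0.0513 to 0.143). With the replicate block its adjusted p was 0.0174. Psmd5 measured 11.50, 11.43 and 11.54 with PDGF-BB and 11.28, 11.35 and 11.17 in control. Psmd9 measured 9.24, 9.33 and 9.36 with PDGF-BB and 9.05, 9.18 and 9.11 in control. Psmd5 and Psmd9 had log2 changes of 0.22 and 0.20 (adjusted p = 0.0605 and 0.0669), with no overlap between groups. Leaving out the 3 chaperones, 13 of 30 genes were called higher, beside 10.1% of all genes.

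In the core particle, the β genes with called changes were Psmb7 and Psmb3. Psmb7 encodes β2, the subunit with trypsin-like activity (Entrez gene 19177). It measured 11.29, 11.45 and 11.45 with PDGF-BB and 11.06, 11.13 and 11.05 in control, with no overlap and tight control values. Psmb7 rose 1.25-fold (log2 change 0.32, 95% interval 0.16 to 0.48, adjusted p = 0.0161), but its adjusted p was 0.0532 to 0.0606 when control array 3, PDGF-BB array 2 or PDGF-BB array 3 was omitted. Psmb3 encodes β3, a structural subunit. It measured 13.44, 13.45 and 13.39 with PDGF-BB and 13.25, 13.14 and 13.17 in control, a 1.18-fold rise (adjusted p = 0.027). Leaving out PDGF-BB array 1 or 2, or control array 2 or 3, raised its adjusted p to between 0.0785 and 0.0941, and leaving out PDGF-BB array 3 brought it to the threshold.

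Psmb6 encodes β1, the subunit with caspase-like activity, and had the largest log2 change of the β genes, 0.37 (95% interval 0.07 to 0.66). It measured 11.50, 11.76 and 11.59 with PDGF-BB and 11.49, 11.21 and 11.04 in control. PDGF-BB array 1 and control array 1 lay side by side, and the gene was not called (adjusted p = 0.0813, and 0.0200 without control array 1). Psmb2 measured 12.43, 12.48 and 12.46 with PDGF-BB and 12.42, 12.24 and 12.16 in control. Psmb4 measured 12.25, 12.18 and 12.32 with PDGF-BB and 12.26, 11.93 and 11.94 in control. Psmb2 and Psmb4, structural β subunits in which control array 1 was the highest control, had log2 changes of 0.18 and 0.21 and were called without control array 1 (adjusted p = 0.0398 and 0.0252) but not otherwise (0.16 and 0.21 over all arrays). Psmb1, the structural β6 subunit, measured 11.30, 11.41 and 11.39 with PDGF-BB and 11.32, 11.36 and 11.34 in control. These values overlapped, with a log2 change of 0.03 and a 95% interval of -0.11 to 0.16, the smallest change of the 33.

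Among the α genes, which form the gated outer rings, Psma3 was the 1 called. It encodes α7 (Entrez gene 19167) and measured 10.24, 10.28 and 10.28 with PDGF-BB and 10.09, 9.71 and 9.63 in control. The PDGF-BB values were tight, and control array 1 stood nearest to them. Psma3 rose 1.37-fold (log2 change 0.46, SE 0.12, adjusted p = 0.0339) and was not called without any 1 array other than control array 1 (0.0881 to 0.104). Psma4 measured 11.35, 11.52 and 11.32 with PDGF-BB and 11.14, 11.25 and 10.93 in control. Psma1 measured 11.68, 11.73 and 11.64 with PDGF-BB and 11.41, 11.60 and 11.28 in control. Psma4 and Psma1, which encode α3 and α6, had log2 changes of 0.29 and 0.25 with no overlap (adjusted p = 0.0822 and 0.0884). Psma4 was called with the replicate block (adjusted p = 0.0307), which made 2 calls of 7 α genes, and Psma1 without control array 2 (0.0297).

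The remaining α genes overlapped between groups. Psma2 measured 10.98, 11.03 and 10.98 with PDGF-BB and 11.08, 10.79 and 10.68 in control. Psma6 measured 11.94, 12.05 and 11.96 with PDGF-BB and 12.12, 11.80 and 11.66 in control. Psma2 (α2) and Psma6 (α1) had log2 changes of 0.15 and 0.13, and in both control array 1 was the highest of all 6 arrays. Psma7 measured 10.36, 10.52 and 10.54 with PDGF-BB and 10.40, 10.19 and 10.14 in control. In Psma7 (α4) the change was 0.23, with a 95% interval of 0.02 to 0.44 and an adjusted p of 0.115. Psma2 and Psma7 were called without control array 1 (adjusted p = 0.0427 and 0.0394). Psma5 (α5) measured 7.30, 7.56 and 7.38 with PDGF-BB and 7.31, 7.04 and 7.19 in control, below the 50th percentile of mean value. Its log2 change of 0.23 was not called (adjusted p = 0.15).

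The 33 genes shared a pattern among the control arrays. Control array 1 held the highest of the 3 control values in 24 of the 33 genes and array 3 in 0, while over all genes each control array was highest in 31.5% to 34.9%. Control array 3 held the lowest value in 22 of the 33, against 33.1% of all genes. As deviations from each gene's mean over the 6 arrays, the medians of the 33 genes were 0.11, 0.15 and 0.16 in PDGF-BB arrays 1 to 3 and -0.03, -0.16 and -0.25 in control arrays 1 to 3. The same medians over all genes lay between -0.03 and 0.02 in every array. Between arrays of the same number, the median difference (PDGF-BB minus control) of the 33 genes was 0.18, 0.32 and 0.40 log2 units for numbers 1, 2 and 3. Over all genes the median difference was 0.01, -0.01 and -0.05. Among the 33 the difference was above 0 in 24 genes for number 1 and in 33 of 33 for numbers 2 and 3. The share of all genes above 0 was not computed for each number.

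Spread differed between the groups as well. The median SD of the 33 genes was 0.06 in PDGF-BB arrays and 0.15 in control arrays, against 0.08 and 0.09 over all genes (n = 3 arrays in each group). The SD was larger in control in 29 of the 33 genes, and in 53.8% of all genes. The principal fit takes a common variance for both groups. The α and β genes were those in which control array 1 came closest to the PDGF-BB arrays, at a median deviation of 0.06 and 0.07 in PDGF-BB array 1 and 0.04 and 0.01 in control array 1. In the ATPases the 3 PDGF-BB medians were 0.18, 0.19 and 0.26, and the control medians -0.07, -0.23 and -0.39.

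**Figure D3:**
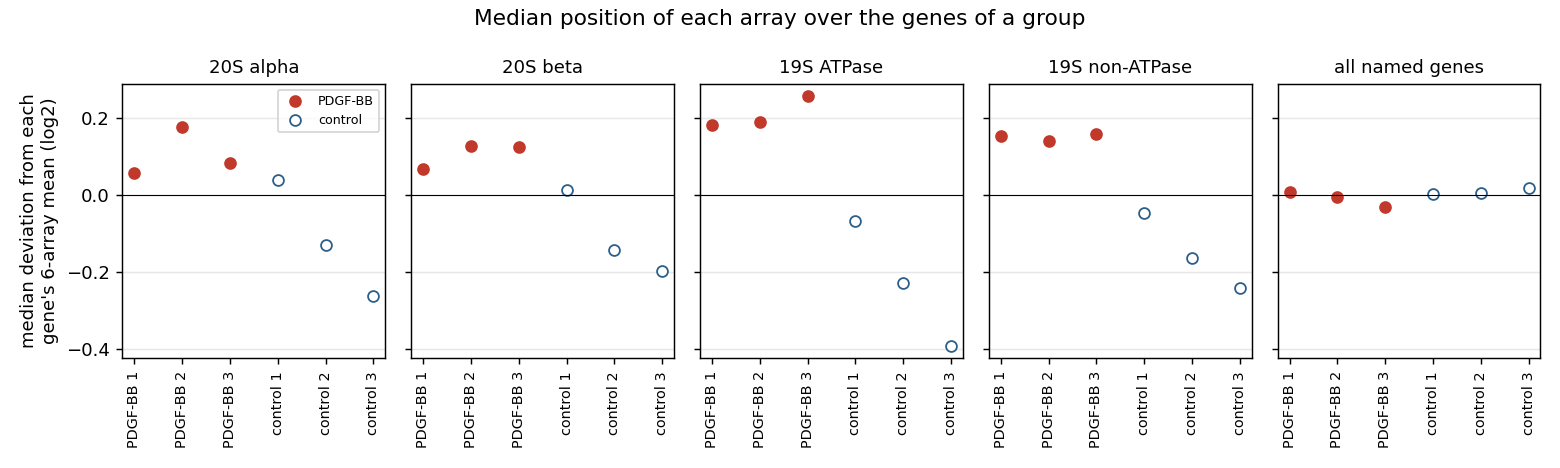
Median, over the genes of each group, of the deviation of an array's log2 value from the gene's mean over all 6 arrays, for PDGF-BB arrays (filled red) and control arrays (open blue). In all 4 groups of proteasome genes the 3 PDGF-BB arrays lie above the 3 control arrays, control array 1 is the highest control and array 3 the lowest, while the medians over all 20239 genes stay between -0.03 and 0.02.

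Promoters were examined because many of the genes were higher in the same arrays. RefSeq promoter windows (GRCm38.p6, 250 bases before to 50 after the annotated start) were matched for 27 of the 33 genes by Entrez number, in 29 windows. The called gene with the smallest p among those with a window is shown for each group, with CCAAT, the NF-Y motif, in capitals on either strand (ATTGG on the reverse).
Psmc5, chr11:106255935-106256234, plus strand: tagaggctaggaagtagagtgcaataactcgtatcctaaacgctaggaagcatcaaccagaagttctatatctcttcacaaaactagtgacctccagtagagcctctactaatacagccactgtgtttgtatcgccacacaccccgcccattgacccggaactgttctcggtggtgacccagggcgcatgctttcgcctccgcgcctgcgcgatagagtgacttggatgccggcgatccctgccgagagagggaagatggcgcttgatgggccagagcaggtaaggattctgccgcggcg
Psmd1, chr1:86064369-86064668, plus strand: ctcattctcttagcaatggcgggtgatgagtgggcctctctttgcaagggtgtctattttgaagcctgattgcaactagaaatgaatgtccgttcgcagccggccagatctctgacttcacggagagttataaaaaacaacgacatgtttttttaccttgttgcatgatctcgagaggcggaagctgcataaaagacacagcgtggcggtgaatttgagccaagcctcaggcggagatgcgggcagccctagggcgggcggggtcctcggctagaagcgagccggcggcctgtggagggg
Psmb3, chr11:97703184-97703483, plus strand: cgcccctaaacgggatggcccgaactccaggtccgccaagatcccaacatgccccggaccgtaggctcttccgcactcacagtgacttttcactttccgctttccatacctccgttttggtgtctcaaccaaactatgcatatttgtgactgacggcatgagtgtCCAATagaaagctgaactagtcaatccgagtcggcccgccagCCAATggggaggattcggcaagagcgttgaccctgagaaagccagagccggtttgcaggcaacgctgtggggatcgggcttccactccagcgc
Psma3, chr12:70974373-70974672, plus strand: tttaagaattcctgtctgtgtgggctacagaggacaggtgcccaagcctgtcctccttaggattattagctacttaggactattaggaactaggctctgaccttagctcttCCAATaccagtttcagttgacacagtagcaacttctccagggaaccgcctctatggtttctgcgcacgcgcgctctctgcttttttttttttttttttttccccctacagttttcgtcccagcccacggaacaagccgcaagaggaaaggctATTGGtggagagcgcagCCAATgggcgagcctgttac
The Psmb3 window held CCAAT at 2 places and the Psma3 window at 3, and those of Psmc5 and Psmd1 at 0. TGACNNNGC, the core of the antioxidant response element to which NRF1 and NRF2 bind with small MAF partners, was in none of the 4 on either strand. Over all 29 windows CCAAT occurred in 11 (37.9%), and in 37.4% of the 32851 windows of all genes. TGACNNNGC occurred in 4 (13.8%), and in 12.4% of all windows. The 4 genes with TGACNNNGC were Psmb6, Psmc6, Psmd9 and Psmd12. None was called, but neither were most of the 27 genes with a window (17 of them). Psmd9, Psmd12 and Psmb6 had adjusted p of 0.0669, 0.0679 and 0.0813, and Psmc6 of 0.698. Psmb6 and Psmd12 were called without control array 1, and Psmd9 after repeated quantile normalization. Whether the element bears on the calls was not tested. CCAAT was in 6 of the 10 called genes with a window and in 5 of the 17 others. A match is only a match of letters, and sites outside these windows were not searched.

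Of the regulators known to act through that element, NRF1 itself was not called at the mRNA level. Nfe2l1 measured 11.91, 11.80 and 11.92 with PDGF-BB and 11.76, 11.88 and 11.90 in control, with overlap. Its log2 change was 0.03 and the adjusted p 0.798, within a 95% interval of -0.12 to 0.19. NRF1 is known to be controlled at the protein level, which these arrays do not measure. For Nfe2l2, which encodes NRF2, the log2 change was 0.15 and the adjusted p 0.132, with a 95% interval of 0.01 to 0.30. Of 10 measured genes of the NRF1 and NRF2 pathway 2 were called higher and 2 lower, where 10.1% and 11.4% of all genes were. Mafg measured 10.60, 10.53 and 10.63 with PDGF-BB and 10.24, 10.23 and 10.24 in control. Keap1 measured 10.21, 10.11 and 10.08 with PDGF-BB and 9.81, 9.79 and 9.69 in control. Neither pair of groups overlapped. Mafg, a small MAF partner, rose 1.28-fold and Keap1, which holds NRF2 for degradation, 1.29-fold (adjusted p = 0.00552 and 0.00878). Bach1 measured 10.47, 10.35 and 10.42 with PDGF-BB and 10.79, 10.87 and 10.79 in control. Mafk measured 9.25, 9.36 and 9.47 with PDGF-BB and 9.68, 9.79 and 9.92 in control. In both genes every control array lay above every PDGF-BB array. Bach1, a repressor of antioxidant response elements, was 1.32-fold lower and the small MAF gene Mafk 1.35-fold lower (adjusted p = 0.00442 and 0.0142). The Mafk value was 0.0503 without PDGF-BB array 1.

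The inducible catalytic subunits, which replace the constitutive β1, β2 and β5 in immunoproteasomes, included the largest changes of the pathway. All 3 were called higher. Psmb8, the inducible β5, measured 9.66, 9.82 and 9.43 with PDGF-BB and 7.87, 7.93 and 8.04 in control. Psmb10, the inducible β2, measured 10.95, 11.43 and 10.74 with PDGF-BB and 10.12, 10.16 and 9.68 in control. Psmb9, the inducible β1, measured 9.38, 9.62 and 9.19 with PDGF-BB and 8.88, 8.76 and 8.83 in control. No groups overlapped, and the log2 changes were 1.69, 1.05 and 0.57 (adjusted p = 0.000499, 0.0106 and 0.0109). Whether an inducible gene changed more than its constitutive partner was tested on the difference of the pair within each array. Psmb10 minus Psmb7 was -0.34, -0.02 and -0.70 in PDGF-BB arrays 1 to 3 and -0.95, -0.97 and -1.36 in control arrays, a shift of 0.74 log2 units. Psmb9 minus Psmb6 was -2.12, -2.14 and -2.40 in PDGF-BB arrays and -2.61, -2.45 and -2.22 in control arrays, a shift of 0.21 with overlapping groups. The exact two-sided permutation p was 0.1 for Psmb10 and Psmb7, the smallest that 3 arrays against 3 allow, and 0.2 for Psmb9 and Psmb6, and both were 0.2 after adjustment over the 2 pairs. Within arrays of like number, Psmb10 minus Psmb7 differed by 0.60, 0.95 and 0.66 and Psmb9 minus Psmb6 by 0.49, 0.31 and -0.18. Exact tests over sign changes of these differences, added after the data were seen, gave p = 0.25 and 0.5, where 0.25 is the smallest p possible. Neither kind of test can fall under 0.05 with 3 arrays a group, so they cannot decide whether an inducible gene changed more. The tissue-restricted genes Psmb11 (thymus) and Psma8 (testis) lay between 6.18 and 7.06 in all arrays and were not called.

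Further lists held factors that act on the finished particle or help to build it. Over 43 measured genes of 7 lists, the inducible subunits and the NRF1 and NRF2 pathway included, 9 were called higher and 2 lower (10.1% and 11.4% of all genes), with a median log2 change of 0.13. Of the 9, 3 were inducible subunits. Among genes at or above the 50th percentile of mean value, 17.4% were called higher. Uchl5, a deubiquitinase of the 19S particle, changed most among the 11 particle-associated factors and was the only one of them called. It measured 9.63, 9.66 and 9.72 in PDGF-BB arrays 1 to 3 and 9.11, 8.84 and 8.74 in control arrays 1 to 3, without overlap. Uchl5 rose 1.71-fold (log2 change 0.77, SE 0.10, adjusted p = 0.00291), and its adjusted p was at most 0.0138 in every alternative run. Ubqln4 and Rad23b, which shuttle ubiquitinated proteins, and Ube3c, a ligase that works on the particle, had log2 changes of 0.29, 0.23 and 0.20 (adjusted p = 0.0503, 0.109 and 0.0909). Without control array 1 the values for Ubqln4 and Rad23b were 0.0234 and 0.0169. Ubqln4 was also called after median centring (0.0448), with genes of low signal (mean value below the 50th percentile) left out (0.0376) and with array weights (0.0366).

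Of the 5 activator and inhibitor genes, Psme2, a subunit of the PA28 cap, was the 1 called (10.1% of all genes were called higher). It measured 11.45, 11.50 and 11.42 with PDGF-BB and 11.15, 10.95 and 10.91 in control, a 1.37-fold rise (adjusted p = 0.00758). Its partner Psme1 had a log2 change of 0.24 (adjusted p = 0.129), and the caps of nuclear proteasomes, Psme4 and Psme3, had 0.22 and 0.11 (adjusted p = 0.0983 and 0.199). Psme4 was called without control array 1 (0.0335). Pomp, the maturation factor of the 20S core, measured 10.53, 10.57 and 10.61 with PDGF-BB and 10.31, 10.36 and 10.34 in control and rose 1.17-fold (adjusted p = 0.0233), which was lost without any 1 array other than PDGF-BB array 1 (0.0560 to 0.0754). The other assembly chaperones named, Psmg4, Psmg1 and Psmg2, had log2 changes of 0.39, 0.26 and 0.14 and were not called. The block on array number gave Psmg4 an adjusted p of 0.0177, and leaving out PDGF-BB array 3 gave 0.0274. It was also called after median centring (0.0480), with genes of low signal left out (0.0417) and with array weights (0.0406), and Psmg1 was called without control array 1 (0.00997).

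Upstream of the particle lie the p97 unfoldase complex, which extracts ubiquitinated proteins, and the enzymes that activate ubiquitin. Of 6 measured p97 cofactors 1 was called, Nploc4, which recruits ubiquitinated substrates, at 1.18-fold (adjusted p = 0.0299). Across all genes 10.1% were called higher. Among genes at or above the median mean value, where all 6 cofactors lay, 17.4% were. Whether the p97 list differs from these shares was not tested. Nploc4 measured 12.86, 12.91 and 12.88 with PDGF-BB and 12.70, 12.58 and 12.66 in control. The call was lost with the replicate block (0.0599) and without any 1 array other than control array 1 (0.0704 to 0.102). Faf1, Faf2 and Ufd1, further p97 cofactors, had log2 changes of 0.13, 0.04 and -0.03. Uba6, a ubiquitin-activating enzyme, had one of -0.05 (95% interval -0.23 to 0.14), and 10 further genes of these lists are not analysed here.

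**Figure D4:**
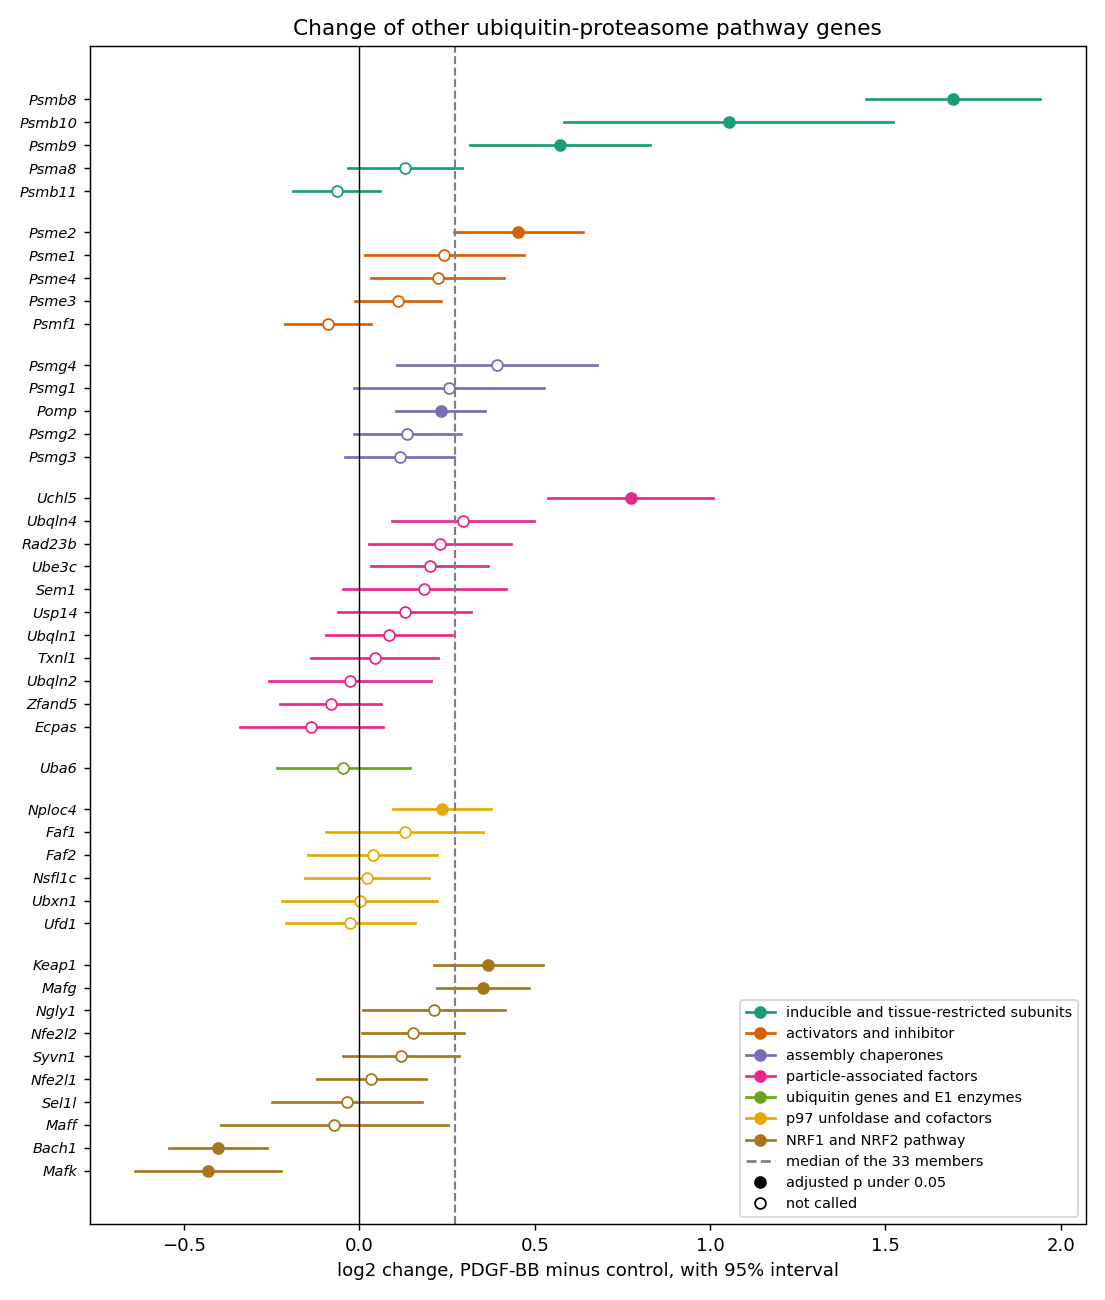
Log2 change (PDGF-BB minus control) with the 95% interval for 43 further genes of the ubiquitin-proteasome pathway, coloured by list and ordered within it; filled points had an adjusted p under 0.05, and the dashed line marks the median change of the 33 constitutive genes at 0.27. Psmb8, Psmb10 and Uchl5 lie farthest to the right, and Mafk and Bach1 are the called genes below 0.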

How the data were processed

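One table of log2 expression values was deposited, with 21225 probe sets and 6 one-colour arrays, 3 a group. The deposited log2 values were made by the authors with RMA (background correction, quantile normalization across arrays, probe set summary), per the submitters' processing notes. No source used here gives the software or its version. Quantile normalization hides a change in total RNA per cell. GEO's platform annotation names 20239 probe sets with 1 gene symbol each, and the other 986 (4.65%) were used in 1 alternative only. Probes were not checked for sequence shared with pseudogenes, which proteasome genes have.

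The principal fit was limma 3.58.1 (R 4.3.3; lmFit, eBayes) on all 6 arrays, with group as the only factor, two-sided, adjusted over 20239 genes; the code was tested on simulated data. Arrays have no read depth, and 3 a group limits precision. The proteasome genes and lists were chosen with earlier results of these data known, so counts are set beside those of all genes and no list was tested. Values are given for every proteasome gene and inducible or tissue-restricted subunit, Nfe2l1, Nfe2l2, Pdgfrb, and up to 4 genes of the smallest p in each other list, with any called in the opposite direction. The planned difference of Psmb8 and Psmb5 is not analysed here.

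Array numbers 1 to 3 occur in each group's labels. Deviations from group means correlated at 0.25, 0.32 and 0.25 between arrays of the same number (-0.28 to 0.01 otherwise). A gene's deviations within a group sum to 0, so higher values in some pairings force lower ones in others. Arrays of the same number deviated alike, as pairs would, but whether they are pairs was not tested. The principal fit holds no term for the array number, so its p-values, intervals and counts take no account of pairs. The fit with the number as a block is given where it changes a call. The values were also refitted after quantile normalization anew, after median centring of arrays, and adding the 986 probe sets without a single gene symbol. Further refits left out genes under the 50th percentile of mean value, used eBayes with trend and robust settings, used array weights, or left out each array.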

Additional observations from a re-analysis of the deposited data

How the results depend on the processing

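The count of 14 proteasome genes called higher, beside 10.1% of all genes, was 15 with the replicate number as a block (10.9% of all genes). It was 16 after a repeated quantile normalization (10.4%), 16 with arrays centred on their medians (10.8%) and 14 with the other 986 probe sets added (9.97%). With dim genes left out it was 16 of 32 (19.2%), with trend and robust eBayes 14 (9.62%) and with array weights 14 (10.4%). In these fits 0 were called lower. With the replicate block 2 rather than 1 of the α genes and 7 rather than 6 of the non-ATPase genes were called. The ATPases gave 4 calls rather than 5, as Psmc3 was lost (adjusted p = 0.0619), and the β genes stayed at 2. Besides the genes named above, Psmd2 was called with dim genes left out (adjusted p = 0.0455), Psmd5 there (0.0497), after repeated quantile normalization (0.0495) and after centring (0.0424), and Psmd9 after repeated quantile normalization (0.0460). Leaving out 1 array, the count ranged from 6 to 22 over all 33 genes, 0 to 3 of the α genes, 0 to 5 of the β genes, 2 to 5 of the ATPases and 3 to 9 of the non-ATPase genes. In the same fits the other pathway genes gave 7 to 12 calls higher and 1 to 2 lower. Across these fits 7.02% to 10% of all genes were called higher. In the fit over all arrays 11.4% of all genes were called lower. Among 428 refits of single proteasome genes, 1 had a change of 0 or below (Psmc6, -0.02). In many of these refits the sign was fixed in advance. The replicate block, the added probe sets, the dim filter and the trend and robust settings leave a gene's change as it was. All refits also share the same 6 arrays, so the count is no separate support for a common direction. Across the omissions of 1 array the median change ranged from 0.23 to 0.33. With 3 arrays in a group, changes of this size lie near what the test can call, so a gene that was not called is not shown to be unchanged.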
